A study of Homo sapiens with 6 samples.

Results

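Alcohol dehydrogenases (ADH) and aldehyde dehydrogenases (ALDH) act in sequence: the former oxidize alcohols to aldehydes, and the latter oxidize aldehydes to carboxylic acids, in both cases usually with NAD+ or NADP+ as the electron acceptor. Substrates include ethanol and acetaldehyde, retinol and retinaldehyde, fatty alcohols, aldehydes from lipid peroxidation, and intermediates of lysine, choline, polyamine and carnitine metabolism. In the intestinal epithelium the family is known for clearing dietary alcohols and lipid aldehydes and for making retinoic acid, and ALDH1A1 is widely used as a marker of stem-like epithelial cells.

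The transcripts of 10 such enzymes were examined in HT29, a human colon adenocarcinoma cell line, out of 60676 genes listed. They were ADH1C, ADH5, ALDH1A1, ALDH1A3, ALDH1B1, ALDH2, ALDH3A2, ALDH3B1, ALDH7A1 and ALDH9A1, found by the identifier that GENCODE pairs with each symbol, and all 10 were found. They are part of a family of 26 genes by nomenclature, 7 named ADH and 19 named ALDH. The 10 genes were chosen by their values in these same libraries, so their levels and differences are given as a description with no p. Where members are counted past the threshold applied to all genes, the count is a description too and no evidence for the choice.

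Wild-type HT29 cells were held for 48 h in control medium (untreated), in medium lacking histidine (histidine depletion) or in medium lacking tryptophan (tryptophan depletion), and polyadenylated RNA was sequenced from 2 libraries per condition. The tryptophan depletion served to separate a response to missing histidine from a response to amino acid shortage in general. The study prepared its histidine-free medium on an RPMI base and its tryptophan-free medium on a DMEM F-12 base. For its proteomics it names full RPMI as the control, but the base of the control medium for these libraries is not given in the sources used here. The study added dialyzed fetal bovine serum to both depletion media, and the serum of the control medium for these libraries is not given either. A difference between the depletions therefore cannot be told apart from an effect of the medium base. A difference of either from untreated cells cannot be told apart from an effect of the base or the serum. HT29 is a single line, and whether the 2 libraries of a condition came from separate cultures is not stated. The p-values therefore rest on spread between libraries, not on a known spread between cultures. limma, the test used, estimates the spread of each gene partly from all genes in the fit. Each depletion had its own fit against untreated cells, so the sizes of p-values are not comparable between the depletions.

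The libraries held between 46390819 and 64388876 reads, which were recovered as whole numbers from the deposited normalized counts. The 11 markers of colon epithelium were all present in untreated cells, with a summed level of 449100 to 477147 normalized counts against 583352 to 616507 after histidine depletion and 639285 to 643260 after tryptophan depletion. The higher sum after histidine depletion came mainly from the keratin KRT8 (186625 and 201539 in untreated cells, 320941 and 340439 after histidine depletion). KRT19, KRT20, EPCAM and CDH1 were also higher. Other markers of the list were lower after histidine depletion than in untreated cells. LGALS4, a galectin of intestinal epithelium, stood at 17513 and 19660 against 54148 and 56465, the transcription factor CDX2 at 182 and 172 against 469 and 457, KRT18 at 81036 and 86412 against 118089 and 123660, and CEACAM5 at 66.9 and 105 against 497 and 540.1. After tryptophan depletion CEACAM5 was at 7952 and 7856. CDH1, VIL1, KRT8, KRT18, KRT19, KRT20 and LGALS4 were higher there than in untreated cells too. CDX2 was lower, at 423 and 365, and EPCAM stood at 26636 and 26253 against 26653 and 28129 in untreated cells. The part of these markers in the results was not tested. CDX1, a transcription factor of the intestinal epithelium, was at 0 reads in both histidine-depleted libraries and at 21.9 and 18.9 normalized counts in the untreated ones, with 5.34 and 2.75 after tryptophan depletion. The summed levels of leukocyte, fibroblast, endothelial and hepatocyte markers lay between 14.9 and 145 normalized counts in every library. PTPRC was at no more than 2.13 and COL1A2 at 0, but other markers of these lists were detected. The leukocyte marker ITGAM was at 65.6 and 76.6 in untreated, 103 and 96.7 in histidine-depleted and 4.27 and 10.99 in tryptophan-depleted cells. CSF1R, of the same list, was at 6.56 and 5.97, 35.2 and 41.7, and 6.40 and 9.16 in that order. The endothelial marker VWF was at 7.65 and 3.98, 42.5 and 40.7, and 8.54 and 8.24. The fibroblast marker COL1A1 was at 66.7 and 69.6, 27.1 and 35.6, and 51.2 and 61.3. Leukocyte markers were the ones that varied most, with sums of 86.3 and 105 in untreated, 140.4 and 145 in histidine-depleted and 14.9 and 23.8 in tryptophan-depleted cells, and their part in the results was not tested. In bulk RNA, fewer cells with a transcript and less of the transcript per cell cannot be told apart.

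The bases just upstream of the transcription start are shown for 4 of the genes, picked by their values as examples of genes lower or higher in both depletions: ADH1C and ALDH1A1 were the lowest of the 10 relative to untreated cells after histidine depletion, ADH5 was lowered less, and ALDH1A3 was higher in both depletions. Genes that went opposite ways in the depletions are not among the 4. Each sequence is the 120 bases before the start in RefSeq (GRCh38.p14), read along the gene's strand, with capitals for CCAAT (the CCAAT box) and GGGCGG (the GC box) on either strand. The positions are chr4:99352747-99352866 (minus strand) for ADH1C, chr9:72953054-72953173 (minus strand) for ALDH1A1, chr4:99088789-99088908 (minus strand) for ADH5 and chr15:100879711-100879830 (plus strand) for ALDH1A3.
ADH1C: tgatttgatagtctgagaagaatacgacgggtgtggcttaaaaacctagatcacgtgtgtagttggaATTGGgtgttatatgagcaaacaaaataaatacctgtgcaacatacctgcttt
ALDH1A1: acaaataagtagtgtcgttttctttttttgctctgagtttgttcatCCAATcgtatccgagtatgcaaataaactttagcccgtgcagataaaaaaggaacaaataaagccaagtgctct
ADH5: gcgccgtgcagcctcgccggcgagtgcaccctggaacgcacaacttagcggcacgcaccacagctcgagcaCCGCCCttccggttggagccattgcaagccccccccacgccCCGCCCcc
ALDH1A3: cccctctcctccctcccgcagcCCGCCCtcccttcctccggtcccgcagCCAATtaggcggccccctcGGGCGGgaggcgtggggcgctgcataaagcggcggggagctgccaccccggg

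The ADH1C and ALDH1A1 windows were poor in G and C, at 38.3% and 35.8%, against a median of 60.0% over 35116 promoters, and each held a single CCAAT box, at 53 and 74 bases before the start. The ADH5 window was 72.5% G and C and held GC boxes at 49 and 8 bases before the start. The ALDH1A3 window was 76.7% G and C and held a CCAAT box at 71 bases and GC boxes at 98 and 52 bases before the start. The windows of the other 5 genes with a RefSeq promoter were 62.5% to 78.3% G and C. Among them were ALDH7A1 at 72.5% and ALDH1B1 at 78.3%, both lower in both depletions. Whether G and C content goes with the change in level was not tested. RefSeq promoters matched 9 of the 10 genes, all but ALDH2, and of these 9 a CCAAT box was found in 6 and a GC box in 7. Over the same length 24.3% and 38% of 27305 genes matched, a gene being counted where any of its RefSeq starts matched. Over 250 bases the same 6 and 7 of the 9 stood against 37.0% and 46.2%. The shorter length was chosen after the matches were seen, and the 27305 genes were not limited to those expressed here, so no excess is read from these shares. The other motifs searched on both strands were TATAAA (the TATA box), TGACNNNGC (antioxidant response element), TNGCGTG (xenobiotic response element), TGATGNAA (ATF4 composite element), CAAAGTCCA (HNF4 element) and the NF-kB element. Each matched 0 of the 9 genes, against 7.01%, 7.41%, 2.74%, 1.99%, 0.238% and 0.117% of the 27305 genes, which says only that these letters are not in these windows.

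Levels in each library are given below as normalized counts after all 6 libraries were scaled together, whereas log2 fold changes and their standard errors come from the fit within the table of each depletion, in which the 2 libraries of a condition were compared with the 2 untreated ones on log2(normalized count + 1). Gene positions are those of GENCODE 44 on GRCh38. On the log scale used, the change of a gene with few counts comes out too small.

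In none of the 10 genes did the 2 libraries of a condition overlap those of another, in any of the 3 pairs of conditions. Of 18264 genes tested over all 6 libraries, 87.9% did not overlap between untreated and histidine-depleted cells, 83.6% between untreated and tryptophan-depleted cells, 88.6% between the depletions and 67.8% in every pair. After histidine depletion 3 of the 10 were higher and 7 lower by the threshold applied to all genes (limma, adjusted p under 0.05), and so were 3 and 7 after tryptophan depletion. Of the 3 higher after histidine depletion, ALDH3B1 and ALDH9A1 no longer passed the threshold without histidine depletion replicate 2, with limma without trend or with quantile normalization, and ALDH9A1 did not pass it without histidine depletion replicate 1 either. Of 18288 genes tested, 77.3% passed this threshold after histidine depletion, 39.1% higher and 38.2% lower. Of 17960 genes tested after tryptophan depletion, 70.8% passed, 36.1% higher and 34.8% lower. Since the genes were selected on these contrasts, nothing is read from these counts. By their means, lower in both depletions were 6 genes, ALDH1A3 and ALDH3B1 were higher in both, and ALDH3A2 and ALDH9A1 were higher in one and lower in the other.

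ALDH1A1 (ENSG00000165092, chr9:72900671-73080442, minus strand), the cytosolic enzyme that oxidizes retinaldehyde to retinoic acid, stood at 38340.4 and 40090.3 normalized counts in untreated cells, 5319 and 6171 in histidine-depleted cells and 18178 and 18362 in tryptophan-depleted cells. The histidine-depleted libraries were the lowest and the untreated ones the highest, with no overlap. The mean was 14.6% of untreated after histidine depletion and 46.6% after tryptophan depletion, with log2 fold changes of -2.77 ± 0.059 (SE) and -1.11 ± 0.051 (SE).

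ALDH1A3 (ENSG00000184254, chr15:100877714-100916626, plus strand), which also makes retinoic acid, went the other way. It stood at 190.2 and 173 normalized counts in untreated cells, 351 and 349 in histidine-depleted cells and 579 and 577 in tryptophan-depleted cells. Both depletions were above untreated cells, and the tryptophan-depleted libraries were the highest. The log2 fold changes were 0.95 ± 0.11 (SE) after histidine depletion and 1.66 ± 0.099 (SE) after tryptophan depletion. Of its exonic bases, 32.2% lie under genes on the opposite strand, ALDH1A3-AS1 among them. The library kit was stranded, but the strand setting of the counting is not given in the sources used here, so reads of those genes may be included.

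Among the enzymes of ethanol and formaldehyde, ADH1C had the most extreme values. ADH1C (ENSG00000248144, chr4:99336497-99352746, minus strand) encodes a class I subunit that oxidizes ethanol and retinol. It stood at 338 and 335 normalized counts in untreated cells, 51.5 and 66.1 in histidine-depleted cells and 7.47 and 6.41 in tryptophan-depleted cells. The tryptophan-depleted libraries held 7 reads each, and all 3 groups were apart. The mean was 17.5% of untreated after histidine depletion and 2.06% after tryptophan depletion, with log2 fold changes of -2.50 ± 0.15 (SE) and -5.42 ± 0.23 (SE). With a pseudocount of 8 instead of 1 the latter was -4.52, and over all alternatives it lay between -5.62 and -4.52. The close paralogs ADH1A and ADH1B, whose reads could be exchanged with those of ADH1C in counting, had at most 2 reads in any library.

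ADH5 (ENSG00000197894, chr4:99070978-99088801, minus strand) is the glutathione-dependent formaldehyde dehydrogenase. It stood at 8149 and 8640.3 normalized counts in untreated cells, 4915 and 4901 in histidine-depleted cells and 6158 and 5983 in tryptophan-depleted cells. Untreated libraries were the highest and histidine-depleted ones the lowest, and the log2 fold changes were -0.76 ± 0.05 (SE) and -0.47 ± 0.047 (SE). ADH5 has 4 annotated pseudogenes by name, as does ALDH7A1, and how reads shared with them were counted is not given in the sources used here.

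ALDH2 (ENSG00000111275, chr12:111766887-111817532, plus strand), the mitochondrial enzyme that clears acetaldehyde, stood at 6272 and 6754 normalized counts in untreated cells, 1957 and 2117 in histidine-depleted cells and 4621 and 4418 in tryptophan-depleted cells. The order was the same as for ADH5, with log2 fold changes of -1.67 ± 0.055 (SE) after histidine depletion and -0.53 ± 0.047 (SE) after tryptophan depletion. ALDH1B1 (ENSG00000137124, chr9:38392702-38398661, plus strand), another mitochondrial enzyme that accepts acetaldehyde, stood at 1894 and 2005 normalized counts in untreated cells, 847 and 892 in histidine-depleted cells and 1224 and 1219 in tryptophan-depleted cells. It too was lowest after histidine depletion, with log2 fold changes of -1.16 ± 0.063 (SE) and -0.68 ± 0.057 (SE).

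Besides ALDH1A3, the genes higher after tryptophan depletion were both enzymes of lipid aldehydes. ALDH3A2 (ENSG00000072210, chr17:19648136-19685760, plus strand), the fatty aldehyde dehydrogenase of the endoplasmic reticulum, stood at 5309 and 5499 normalized counts in untreated cells, 2847 and 2955 in histidine-depleted cells and 9819 and 10234 in tryptophan-depleted cells. Histidine-depleted libraries were below and tryptophan-depleted libraries above the untreated ones. The mean was 53.7% of untreated in the former and 186% in the latter, with log2 fold changes of -0.89 ± 0.051 (SE) and 0.88 ± 0.047 (SE).

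ALDH3B1 (ENSG00000006534, chr11:68008578-68029282, plus strand), which oxidizes medium- and long-chain aldehydes, stood at 4306 and 4458 normalized counts in untreated cells, 4768 and 5215 in histidine-depleted cells and 12838 and 12943 in tryptophan-depleted cells. The tryptophan-depleted libraries were far above the rest, and the histidine-depleted ones were only just above the untreated ones. The log2 fold changes were 0.20 ± 0.053 (SE) and 1.55 ± 0.046 (SE). The former was 0.039 after quantile normalization and 0.13 without histidine depletion replicate 2, and in both of these settings, as with limma without trend, it did not pass the threshold applied to all genes.

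ALDH7A1 (antiquitin, ENSG00000164904, chr5:126531200-126595362, minus strand) oxidizes aminoadipic semialdehyde in lysine degradation and betaine aldehyde in choline degradation. It stood at 4309.7 and 4493 normalized counts in untreated cells, 1169 and 1276 in histidine-depleted cells and 862 and 859.8 in tryptophan-depleted cells. Both depletions were well below untreated cells, and the tryptophan-depleted libraries were the lowest. The log2 fold changes were -1.84 ± 0.057 (SE) and -2.36 ± 0.054 (SE).

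ALDH9A1 (ENSG00000143149, chr1:165662216-165698562, minus strand) oxidizes trimethylaminobutyraldehyde in carnitine synthesis and aminobutyraldehyde from polyamines. It stood at 3159 and 3162 normalized counts in untreated cells, 3524 and 3539.8 in histidine-depleted cells and 1444 and 1509 in tryptophan-depleted cells. The untreated libraries differed by only a few counts, the histidine-depleted ones were slightly above them, and the tryptophan-depleted ones were clearly below. The log2 fold changes were 0.17 ± 0.051 (SE) and -1.11 ± 0.053 (SE). The former was 0.075 after quantile normalization. It did not pass the threshold in that setting, with limma without trend, or without either one of the histidine-depleted libraries, where the log2 fold change was 0.17 each time.

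Set against each other in a fit over all 6 libraries, 3 of the 10 genes were higher after histidine than after tryptophan depletion and 7 were lower. Of 18264 genes tested in that comparison, 76.7% passed the threshold, 38.7% higher and 38% lower. The log2 difference, histidine minus tryptophan depletion (± SE, 2 libraries each), was 2.91 ± 0.21 for ADH1C, 1.26 ± 0.044 for ALDH9A1 and 0.50 ± 0.053 for ALDH7A1. On the other side it was -1.79 ± 0.042 for ALDH3A2, -1.67 ± 0.054 for ALDH1A1, -1.37 ± 0.045 for ALDH3B1 and -1.15 ± 0.049 for ALDH2. With a pseudocount of 8 the value of ADH1C was 2.15. Smaller negative values were -0.72 ± 0.09 for ALDH1A3, -0.49 ± 0.055 for ALDH1B1 and -0.31 ± 0.041 for ADH5.

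Between genes, the levels that follow are normalized counts per kilobase of merged exon, unless another length is named. In untreated cells the order was ALDH1A1 (13808 ± 436, SD, n = 2), ADH5 (1725 ± 71.3), ALDH9A1 (1051 ± 0.735), ALDH2 (670 ± 35.0), ALDH3B1 (662 ± 16.2), ALDH1B1 (625 ± 25.2), ALDH3A2 (352 ± 8.79), ALDH7A1 (246 ± 7.22), ADH1C (214 ± 1.15) and ALDH1A3 (34.0 ± 2.27). ALDH2 and ALDH3B1 overlapped between libraries, and no other neighbours in this order did. After histidine depletion ALDH1A1 was still first at 2023 ± 212, ALDH9A1 came next at 1175 ± 3.81, and ADH1C was last at 37.4 ± 6.58. ALDH7A1 (68.2 ± 4.22) and ALDH1A3 (65.6 ± 0.326) were the only neighbours that overlapped there. After tryptophan depletion ALDH3B1 was second at 1947 ± 11.2, behind ALDH1A1 at 6433 ± 45.8, ADH1C was last at 4.41 ± 0.476, and no neighbours overlapped. The order depends on the length used. Per kilobase of the MANE Select transcript, ALDH3A2 was 4.14 times and ALDH7A1 3.76 times its level per merged exon. In untreated cells ALDH3A2 moved from place 7 to place 4, and ALDH2 from place 4 to place 7. After histidine depletion ADH5 (1851) and ALDH3B1 (1776) came before ALDH9A1 (1475) by transcript length.

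The summed normalized counts of the 26 family genes were 96485 and 100928 in untreated cells, 39899 and 42397 in histidine-depleted cells, and 83691 and 83479 in tryptophan-depleted cells. Reads of longer transcripts weigh more in such a sum. ALDH1A1 made up 39.7% of it in both libraries of untreated cells, 13.3% and 14.6% in histidine-depleted cells, and 21.7% and 22.0% in tryptophan-depleted cells.

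Of the 26 family genes, 22 passed the filter on low counts (10 normalized counts on average) and were tested, and ADH1A, ADH1B, ADH4 and ADH7 were not. After histidine depletion 5 of the 22 were higher and 16 lower, with a median log2 fold change of -1.02 against 0.010 over all genes tested. Without histidine depletion replicate 2 the count of higher genes was 3. After tryptophan depletion 7 were higher and 12 lower, with a median of -0.35 against 0.013. Between the depletions 7 were higher and 13 lower after histidine depletion, with a median of -0.61 against 0.011. Of all genes tested, 77.3% passed the threshold after histidine depletion, 39.1% higher and 38.2% lower. After tryptophan depletion 70.8% passed, 36.1% higher and 34.8% lower, and between the depletions 76.7%, 38.7% higher and 38% lower. The 10 selected genes are among the 22. Of the 12 other tested genes alone, 2 were higher and 9 lower after histidine depletion, 4 higher and 5 lower after tryptophan depletion, and 4 higher and 6 lower between the depletions. Those called were 91.7%, 75% and 83.3% of the 12. Their median log2 fold changes were -1.02, 0.11 and -0.37 in the same order, against -1.02, -0.61 and -0.61 for the 10 selected genes, so the family's median after tryptophan depletion has the opposite sign without the selected genes.

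**Figure D1:**
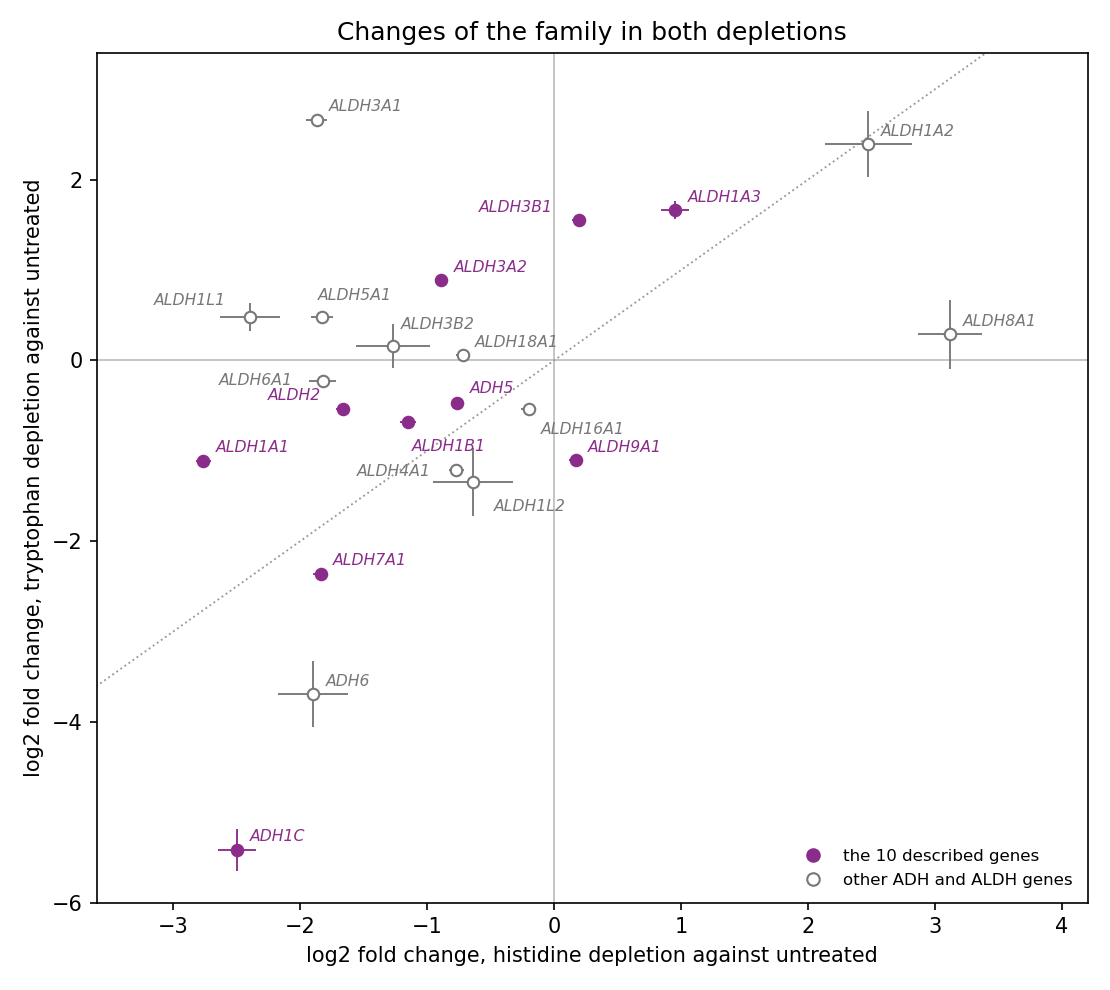
Log2 fold changes of the 22 tested family genes against untreated cells, histidine depletion on the horizontal and tryptophan depletion on the vertical axis, with bars for SE. Filled points are the 10 selected genes, open points the other family genes, and the dotted line marks equal change. Both axes share the untreated libraries. ADH1C lies lowest, and ALDH3A1 lies at -1.87 and 2.66.

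Levels of the following genes are means ± SD (n = 2) within the table of the depletion, and each change is against the untreated mean of that table. Among the other family genes with retinoid or alcohol substrates, ALDH1A2, a further retinaldehyde dehydrogenase, rose from 7.29 ± 1.93 to 44.4 ± 0.212 normalized counts (SD, n = 2) after histidine depletion (log2 2.47 ± 0.34 (SE), limma adjusted p = 5.62e-07) and rose after tryptophan depletion too (log2 2.39, limma adjusted p = 2.89e-09). With a pseudocount of 8 these log2 fold changes were 1.78 and 1.71. ADH6, which lies with the other ADH genes in a cluster on chromosome 4, fell from 66.1 ± 0.157 to 17.4 ± 5.46 after histidine depletion (log2 -1.90, limma adjusted p = 1.02e-06). After tryptophan depletion it fell to 4.26 ± 1.61 (log2 -3.70, limma adjusted p = 1.37e-17), and like ADH1C it was lower after tryptophan than after histidine depletion. With a pseudocount of 8 its log2 fold change after tryptophan depletion was -2.59, and the log2 difference of histidine minus tryptophan depletion was 1.03 in place of 1.79.

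ALDH3A1, which oxidizes aromatic and lipid aldehydes, fell from 874 ± 18.6 to 238 ± 3.02 after histidine depletion (log2 -1.87 ± 0.085 (SE), limma adjusted p = 6.80e-16) and rose from 866 ± 20.7 to 5495 ± 179.8 after tryptophan depletion (log2 2.66 ± 0.052 (SE), limma adjusted p = 1.21e-88). ALDH3B2, a relative of ALDH3B1, fell after histidine depletion (log2 -1.27, limma adjusted p = 3.69e-04) and had a log2 fold change of 0.16 after tryptophan depletion (limma adjusted p = 0.57).

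ALDH5A1, the succinic semialdehyde dehydrogenase of GABA breakdown, fell by 1.83 on the log2 scale, ALDH6A1, of valine breakdown, fell by 1.82, and ALDH4A1, of proline breakdown, fell by 0.77 (limma adjusted p = 1.87e-15, 7.96e-14 and 1.12e-11). ALDH18A1, which makes the precursor of proline, fell by 0.72 (limma adjusted p = 3.04e-12). After tryptophan depletion ALDH5A1 rose (log2 0.48, limma adjusted p = 2.12e-12), ALDH4A1 fell by 1.21 (limma adjusted p = 4.53e-49), ALDH6A1 fell by 0.23 (limma adjusted p = 0.00193), a call that was lost after quantile normalization (limma adjusted p = 0.0859) and in the fit on all 6 libraries (limma adjusted p = 0.0728), and ALDH18A1 stood at a log2 fold change of 0.05 (limma adjusted p = 0.306), called higher without untreated replicate 2 (limma adjusted p = 0.0159). ALDH8A1, which acts in the kynurenine pathway of tryptophan breakdown, rose from 14.6 ± 5.32 to 131 ± 4.3 after histidine depletion (log2 3.12 ± 0.25 (SE), limma adjusted p = 5.27e-11). After tryptophan depletion its log2 fold change was 0.29 ± 0.38 (SE) (limma adjusted p = 0.511).

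ALDH1L1, the cytosolic formyltetrahydrofolate dehydrogenase, fell from 102 ± 3 to 18.6 ± 1.88 after histidine depletion (limma adjusted p = 1.43e-09) and rose to 141 ± 0.63 after tryptophan depletion (log2 0.48, limma adjusted p = 0.00376), where DESeq2 gave an adjusted p of 0.0757. Its mitochondrial counterpart ALDH1L2 had a log2 fold change of -0.64 after histidine depletion (limma adjusted p = 0.0684) and was called lower with limma without trend (adjusted p = 0.0139) and with quantile normalization (limma adjusted p = 0.0352). It fell by 1.35 after tryptophan depletion (limma adjusted p = 7.55e-04). ALDH16A1, which is thought to lack enzyme activity, fell by 0.20 and 0.54 (limma adjusted p = 0.0027 and 2.26e-16).

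Genes that act beside the 10 enzymes were taken from 5 lists, which were chosen with earlier results of these data known. The genes named from each list are called genes with the largest changes. Their p-values are therefore no independent evidence for the choice of a list or a gene. In the list of retinoid metabolism and signalling, 25 of 30 genes were tested after histidine depletion, of which 8 rose and 11 fell (median log2 fold change -0.30), and 24 after tryptophan depletion, of which 15 rose and 6 fell (median 0.43). STRA6, the retinol importer, rose from 305 ± 18.1 to 2088 ± 27.7 after tryptophan depletion (log2 2.77 ± 0.069 (SE)) and by 0.39 after histidine depletion (limma adjusted p = 6.07e-76 and 0.00113). RBP4, the plasma retinol carrier, rose by 2.11 and 0.42 in the same order (limma adjusted p = 8.02e-53 and 8.53e-04). DHRS9, a retinol dehydrogenase, rose by 2.18 after tryptophan depletion and had a log2 fold change of -0.33 after histidine depletion (limma adjusted p = 3.24e-39 and 0.0698), which was called lower in the fit on all 6 libraries (limma adjusted p = 0.0158) and with limma without trend (adjusted p = 0.0105). CRABP2, which delivers retinoic acid to its nuclear receptors, fell by 1.21 after histidine depletion and rose by 0.54 after tryptophan depletion (limma adjusted p = 3.67e-16 and 3.90e-21). DHRS4, a carbonyl reductase with near-identical copies that could share its reads, fell by 2.31 and 0.63 (limma adjusted p = 6.93e-15 and 3.85e-11). RDH14, a retinol dehydrogenase, fell by 1.11 and 0.30 (limma adjusted p = 6.25e-10 and 0.002), and the latter call was lost after quantile normalization.

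In the list of ethanol, acetaldehyde, formaldehyde and acetate, 11 of 14 genes were tested, of which 2 rose and 7 fell after histidine depletion (median -0.62) and 3 rose and 7 fell after tryptophan depletion (median -0.46). Catalase (CAT), which can also oxidize ethanol, fell from 6402 ± 254 to 1755 ± 194 after histidine depletion and to 3318 ± 60.2 after tryptophan depletion (limma adjusted p = 1.51e-18 and 1.23e-40). ESD, the S-formylglutathione hydrolase that acts after ADH5, fell by 1.03 and 0.80 (limma adjusted p = 2.87e-15 and 4.41e-35). The mitochondrial acetate-activating enzyme ACSS1 fell by 1.24 and 0.46, whereas the cytosolic one, ACSS2, rose by 0.51 and 1.95 (limma adjusted p = 2.58e-16, 1.01e-16, 9.79e-08 and 3.51e-70). HAGH, a glyoxalase, fell by 1.24 after histidine depletion and had a log2 fold change of 0.11 after tryptophan depletion (limma adjusted p = 4.71e-14 and 0.0742), which was called higher with quantile normalization (limma adjusted p = 0.0172) and without untreated replicate 2 (limma adjusted p = 0.0097).

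In the list of lipid aldehydes and fatty alcohols, 13 of 14 genes were tested, of which 5 rose and 7 fell after histidine depletion (median -0.42) and 8 rose and 3 fell after tryptophan depletion (median 0.41). PECR, a peroxisomal enoyl-CoA reductase, fell from 707 ± 57.8 to 211 ± 27.2 after histidine depletion and rose to 1439 ± 58.3 after tryptophan depletion (limma adjusted p = 7.96e-14 and 1.68e-32). The fatty acid hydroxylases CYP4F3 and CYP4F12, close paralogs that could share reads, rose by 3.11 and 2.59 after tryptophan depletion (limma adjusted p = 2.16e-64 and 2.93e-56). After histidine depletion they fell by 0.56 and 0.44 (limma adjusted p = 0.00587 and 0.01), calls of which that of CYP4F3 was lost with limma without trend (adjusted p = 0.0718) and both were lost with DESeq2 (adjusted p = 0.0553 and 0.0910), without untreated replicate 1 (limma adjusted p = 0.128 and 0.0531) and without histidine depletion replicate 1 (0.0593 and 0.0869). FAR2, which makes fatty alcohols, fell by 1.47 and 0.77, and SPHK1, which phosphorylates sphingosine, rose by 1.65 and 1.65 (limma adjusted p = 1.15e-16, 4.02e-27, 1.10e-08 and 1.25e-14).

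**Figure D2:**
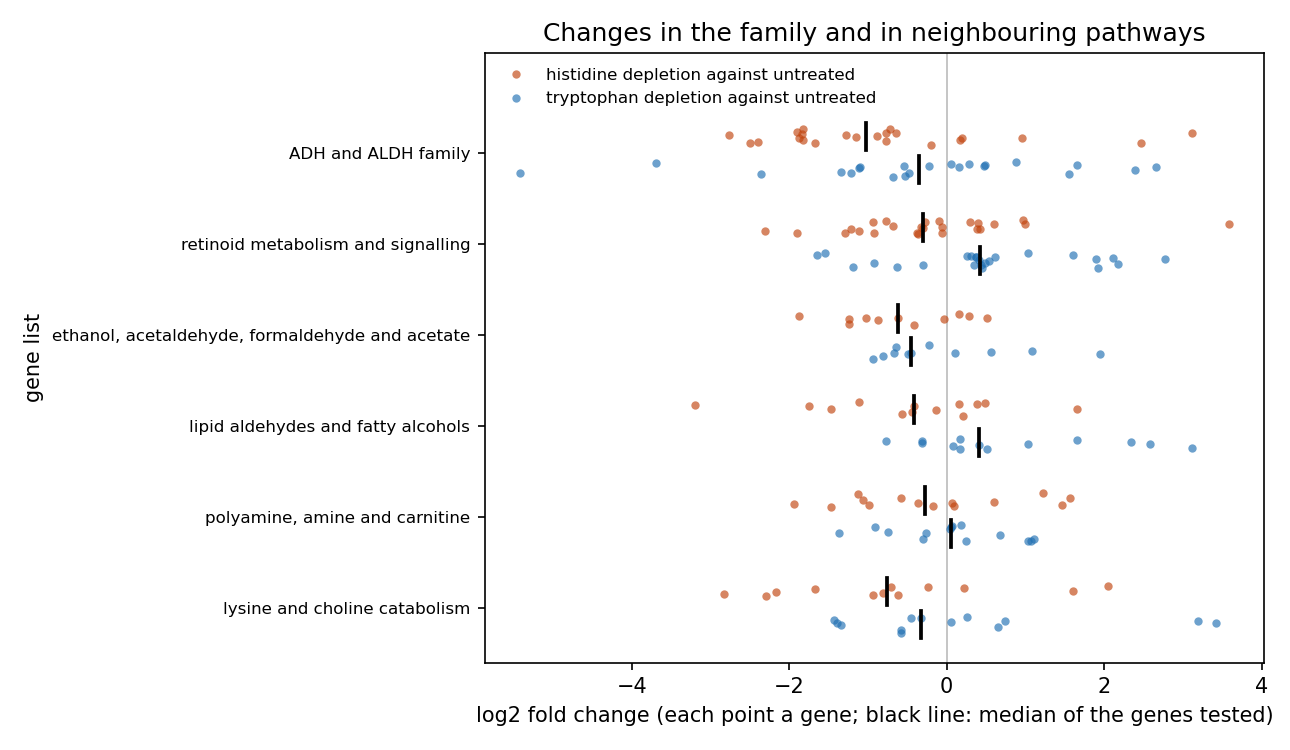
Log2 fold changes against untreated cells of the tested genes in the family and in the 5 lists, 1 point a gene, with histidine depletion above and tryptophan depletion below in each list; vertical scatter only separates points. Black lines are medians: -1.02 and -0.35 in the family (-1.02 and 0.11 without the 10 selected genes), -0.30 and 0.43 in the retinoid list.

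In the list of polyamines, amines and carnitine, 14 of 16 genes were tested, of which 4 rose and 8 fell after histidine depletion (median -0.27) and 6 rose and 4 fell after tryptophan depletion (median 0.060). ODC1, the first enzyme of polyamine synthesis, rose from 21552 ± 605 to 63808 ± 874 after histidine depletion and fell to 11383 ± 369 after tryptophan depletion (limma adjusted p = 6.05e-18 and 6.45e-39). Spermine synthase (SMS) fell by 1.12 and 1.36, and the diamine oxidase AOC1, whose aldehyde products are substrates of the family, fell by 1.94 and 0.75 (limma adjusted p = 3.34e-16, 1.86e-59, 1.27e-16 and 3.54e-25). TMLHE, which opens the carnitine pathway that ALDH9A1 serves, fell by 1.46 after histidine depletion and rose by 0.25 after tryptophan depletion (limma adjusted p = 1.21e-15 and 4.23e-05). The carnitine importer SLC22A5 rose by 0.60 and 1.08 (limma adjusted p = 6.73e-08 and 2.75e-32). MAOA, which oxidizes amines to aldehydes, fell by 0.37 and rose by 1.11 (limma adjusted p = 2.71e-06 and 2.99e-47).

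In the list of lysine and choline catabolism, 12 of 13 genes were tested after histidine depletion, of which 3 rose and 8 fell (median -0.76), and 13 after tryptophan depletion, of which 5 rose and 5 fell (median -0.32). CHDH, which makes the betaine aldehyde that ALDH7A1 oxidizes, fell from 2746 ± 14.8 to 388 ± 75.3 after histidine depletion and to 1012 ± 24.9 after tryptophan depletion (limma adjusted p = 3.67e-19 and 3.85e-53). AASS, which makes the aminoadipic semialdehyde that ALDH7A1 oxidizes, rose from 25 ± 7.44 to 105 ± 10.5 after histidine depletion and had a log2 fold change of -0.58 after tryptophan depletion (limma adjusted p = 2.46e-08 and 0.127), which was called lower without untreated replicate 2 (limma adjusted p = 0.0466). The later lysine enzymes AADAT and GCDH fell in both, AADAT by 2.30 and 1.34 and GCDH by 0.81 and 1.39 (limma adjusted p = 1.67e-12, 1.19e-17, 4.60e-10 and 6.65e-37). DMGDH, of choline breakdown, rose from 24.9 ± 4.86 to 274 ± 25.3 after tryptophan depletion (limma adjusted p = 2.73e-38) and had a log2 fold change of -0.23 after histidine depletion (limma adjusted p = 0.504). The percentages of all genes given above for each comparison are the background of these counts, and nothing is called particular to a list.

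The coding sequences carry few histidine codons. In MANE Select transcripts all 10 genes lay below the median share of histidine codons (CAC or CAT) over 19061 transcripts, 2.43% of codons, and so did 25 of the 26 family genes. ALDH9A1 had the lowest share, 4 codons or 0.772%, and ALDH3B1 the highest of the 10, 9 codons or 1.92%. ALDH18A1 was the family gene above the median, at 3.65%. For tryptophan codons the 10 genes were divided, with 5 below the median of 1.12%. ALDH7A1 had 13 tryptophan codons (2.41%), the highest share of the 10, and ADH1C had 2 (0.533%), the lowest. These 2 genes had the lowest log2 fold changes of the 10 after tryptophan depletion.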

How the data were processed

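RNA-seq libraries came from HT29 cells, 2 each of untreated, histidine-depleted and tryptophan-depleted cells. The authors aligned stranded reads with STAR 2.7.10a to GRCh38 and counted them with HTSeq 2.0.5, and they deposited the counts divided by DESeq2 size factors, a signal with no negative values, in separately normalized tables of each depletion. The paper's methods name protein-coding genes, but 60676 genes are listed. Treatment of strand and molecular identifiers in counting is not given in the sources used here. Columns of other samples numbered 0.

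Whole reads were recovered from 100% of the values (within 0.1). Each depletion was compared with untreated cells within its table by limma 3.58.1 in R 4.3.3 (trend on, two-sided) on log2(normalized count + 1), keeping genes that averaged 10 or more, with Benjamini-Hochberg adjustment over all genes and a threshold of 0.05. The depletions were compared with each other on reads of all 6 libraries scaled by median-of-ratios factors. The scripts were tested on simulated data in which few genes changed. Most genes passed the threshold in the real data, so that test does not cover the scaling or the error rate here. The settings varied were the pseudocount (0.5 or 8), the filter (none or 50), the limma trend, quantile normalization, the tool (edgeR 4.0.16 or DESeq2 1.42.0, on recovered reads), a fit on all 6 libraries, a required fold, a replicate block and each library left out; transcript length was added after the data were seen.

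The 10 genes and the lists were chosen with earlier results of these data known. Named genes were the 10, every other tested family gene and, per list and depletion, up to 3 called genes with the largest change and a mean of at least 100 in the higher group. Positions, lengths and codons came from GENCODE 44, in which 60357 identifiers were found, and promoters from RefSeq. Promoters were first searched over 250 bases and then over the 120 shown, a length chosen after the matches were seen; the same numbers of the 9 genes matched each motif, while over 250 bases 37.0% of all genes matched CCAAT and 46.2% GGGCGG at any RefSeq start.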

Additional observations from a re-analysis of the deposited data

Results flagged for a closer look

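Among the 10 enzymes, 2 had depleted libraries on opposite sides of the untreated ones. ALDH3A2 had log2 fold changes of -0.89 after histidine depletion and 0.88 after tryptophan depletion, and ALDH9A1 had 0.17 and -1.11. The direct difference, histidine minus tryptophan depletion, was -1.79 for ALDH3A2 and 1.26 for ALDH9A1. Both values passed the threshold in the fit over all genes, but the genes were chosen on these libraries, so no p is given and the difference was not tested independently of that choice.

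Of the 12 other tested family genes, 10 differed between the depletions by the direct test (limma, adjusted p under 0.05), where 76.7% of all genes tested did. So did 26 of the 27 named genes of the lists, which were picked because they were called with the largest changes from untreated cells, so their share is not set against that of all genes. The media of the depletions differed in base. The values below are log2 differences, histidine minus tryptophan depletion. In 10 genes each depletion also passed the threshold, in opposite directions: -2.89 for ALDH1L1, -4.55 for ALDH3A1, -2.33 for ALDH5A1, -1.77 for CRABP2, -2.80 for PECR, -3.69 for CYP4F3, -3.04 for CYP4F12, 2.46 for ODC1, -1.73 for TMLHE and -1.49 for MAOA. With DESeq2 the calls of CYP4F3 and CYP4F12 after histidine depletion were lost, as was that of ALDH1L1 after tryptophan depletion. In the rest of the family the differences were 1.79 for ADH6, -1.45 for ALDH3B2, 0.43 for ALDH4A1, -1.61 for ALDH6A1, 2.81 for ALDH8A1, 0.32 for ALDH16A1 and -0.79 for ALDH18A1. Among retinoid genes they were -1.70 for DHRS4, -0.83 for RDH14, -2.40 for STRA6, -2.52 for DHRS9 and -1.71 for RBP4. Among genes of ethanol and acetate they were -0.95 for CAT, -0.80 for ACSS1, -1.37 for HAGH, -1.45 for ACSS2 and -0.24 for ESD. For lipid, amine and carnitine genes they were -0.72 for FAR2, -1.21 for AOC1, 0.23 for SMS and -0.49 for SLC22A5. In lysine and choline breakdown they were -1.42 for CHDH, -0.97 for AADAT, 2.62 for AASS, -3.66 for DMGDH and 0.57 for GCDH.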

How the results depend on the processing

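All 30 log2 fold changes of the 10 enzymes (3 comparisons each) kept their sign under every alternative run, and of the values under those alternatives 397 moved by less than the spread between libraries and 33 by more. After histidine depletion the 5 higher family genes became 3 with limma without trend and 3 with quantile normalization, and the cause was not tested. The 2 lost each time were ALDH3B1 and ALDH9A1, as without histidine depletion replicate 2. When a log2 fold change of 1 or more in size was required as well, higher family genes numbered 2 after histidine depletion, 4 after tryptophan depletion and 4 between the depletions, and lower ones 7 after tryptophan depletion, by construction. Leaving out each library in turn gave 3 to 5 higher and 16 lower family genes after histidine depletion, 7 to 8 higher and 12 lower after tryptophan depletion, and 7 higher and 13 lower between the depletions; the 3 came without histidine depletion replicate 2. Where a condition kept a single library, it was assumed to vary like the others.

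With a replicate block, the counts were 5 higher and 16 lower after histidine depletion, 7 and 12 after tryptophan depletion, and 7 and 13 between the depletions, as without it. The numbers did not pair the libraries: replicate differences correlated at 0.117 between untreated and histidine-depleted libraries, -0.053 between untreated and tryptophan-depleted ones and -0.104 between the depletions, over 12480 genes.

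Among the other named genes, 6 uncalled values changed sign. After tryptophan depletion these were ALDH18A1 at -0.035 with quantile normalization and ALDH8A1 at -0.068 without untreated replicate 2 (0.64 without replicate 1). Between the depletions they were ALDH1A2 at -0.12 without tryptophan depletion replicate 1 (0.25 without replicate 2), and SPHK1 at 0.047 with quantile normalization, 0.050 without histidine depletion replicate 2 and 0.067 without tryptophan depletion replicate 2 (-0.11 without replicate 1). A further 11 values lost a call and 9 gained it. Having 2 libraries per condition and, for ADH1C and ADH6, few reads after tryptophan depletion limits the precision.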
